A study of Mus musculus with 2 samples.

Results

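The replication-dependent histone genes were taken as every array probe whose listed gene symbol begins with Hist1h, Hist2h, Hist3h or Hist4h. This gave 51 of the 39429 probes on the array and 47 of its 31829 gene symbols. The members comprised 6 linker histone H1 probes, 15 H2A probes, 11 H2B probes, 8 H3 probes and 11 H4 probes. By cluster, 37 lay in Hist1 on chromosome 13, 10 in Hist2 on chromosome 3, 3 in Hist3 on chromosome 11 and 1 in Hist4 on chromosome 6. RefSeq (GRCm38.p6) lists 46 of the 47 genes as protein coding and Hist3h2bb as a transcribed pseudogene.

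These genes are transcribed in S phase to supply the nucleosome core histones and the linker H1 for newly copied DNA. Unlike other messenger RNAs, their transcripts usually end in a conserved stem-loop, bound by the stem-loop binding protein Slbp and cut with the help of the U7 small nuclear ribonucleoprotein, without a poly(A) tail. Some also give longer, polyadenylated transcripts from sites downstream of the stem-loop, as described in differentiating cells. The RNA here was copied from an oligo-dT primer, which starts at a run of A, so a level below reports what that primer copied and not the whole amount of histone mRNA.

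Two-colour arrays compared 3 monoclonal lines of ZHBTc4 mouse embryonic stem (ES) cells, in which both endogenous Oct4 alleles are disrupted and an Oct4 transgene is shut off by doxycycline. All lines were grown without feeders in medium with 15% serum and 1000 IU/ml LIF, and all were given doxycycline before harvest; the dose and duration are not given in the sources used here. Each line carried a pCAG-IP construct and was 1 clone: EGFP (clone 2-5), Oct4-EGFP (clone 9) or Nr5a2-EGFP (clone 26). The EGFP array held the EGFP clone in Cy3, the Oct4 array held the Oct4-EGFP clone in Cy3, and both held the Nr5a2-EGFP clone, which expresses a fusion of the orphan nuclear receptor Nr5a2, in Cy5. The design had no replicate and no dye swap, so no test was possible, and clone, dye and construct cannot be told apart. The Oct4-EGFP clone met the EGFP clone on neither array, so that ratio is indirect, the difference of the 2 measured ratios, and it shares the Nr5a2-EGFP channels with both.

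Of the 51 histone probes, 46 were well above background in all 4 channels, against 74.3% of all probes on the array. Hist1h2ae and Hist2h2ab were above background in no channel. Hist1h1d, Hist1h2bp and Hist2h3c2 were above it in some channels. Saturated readings occurred for Hist1h1t, for the Hist1h2ak probe at the start of its transcript and for the Hist1h4i probe at its 3′ end. Each member was printed as 1 spot, and the 399 other probes printed 10 times had a median SD of 0.07 in log2 ratio on both arrays.

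The stem-loop itself was printed on the array, and these probes are shown because they cover the end that normally has no tail. Five-prime to three-prime, with the 16-base stem-loop in capitals, the surrounding probe letters read:
Hist1h3a: aaccaaaGGCTCTTTTCAGAGCCaca
Hist1h3g: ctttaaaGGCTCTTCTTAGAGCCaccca
Hist1h3i: aacaaaaGGCTCTTTTCAGAGCCccctc
Hist2h2aa1: taaaaaGGCTCTTTTCAGAGCCacccactg
Hist2h2bb: cccaaaaGGCTCTTTTCAGAGCCacttta
The capital letters of Hist1h3a occurred in 4 of 39429 probes (0.0101%), and all 4 were members. Those of Hist1h3g, which differ in the loop, occurred in 1 probe (0.00254%); neither form was found on the other strand. A further 2 members, Hist1h2ab and Hist1h2ae, held at least 11 of the 16 bases at an edge of the probe.

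Probes were therefore sorted by place into 7 stem-loop probes, 12 far 3′ probes and 32 body probes. Far 3′ probes are those outside the stem-loop group that start at base 450 or later of a core histone transcript, or base 1000 or later of an H1 transcript. Such a start need not lie past the stem-loop, since the stem-loop probes of Hist2h2aa1 and Hist1h2ae start at bases 488 and 541. The rest were counted as body probes. A signal well above background in all 4 channels was seen for 6 of 7 stem-loop probes, 9 of 12 far 3′ probes and 31 of 32 body probes. The poly(A) signal AATAAA was present in 2 of 51 members (3.92%) against 12.6% of all probes, and its variant ATTAAA in 2 of 51 against 4.56%, on the probe's strand; on the other strand 1 member held each (4.03% and 2.65% of all probes). Those 4 sites are shown, with the signal in capitals, since 3 of them belong to far 3′ probes:
Hist3h2ba: cataatggtattAATAAAtttggttca
Hist1h2be: gtactgttcattATTAAAgcattcctgatt
Hist1h4i: ccgagtgttgggATTAAAggcgtgcgccac
Hist1h2ag: aggccaaggggaAATAAAaccctttatac
In Hist1h2ag the signal overlaps the end of the coding sequence. The probes of Hist2h3c2 and Hist1h4i (the 3′ one) end in a run of 6 A. The Hist1h4i stretch resembles the mouse B1 short interspersed repeat, and the probe shares a run of 20 letters with probes listed to Galns and Slc10a1, the second on the other strand. Those 2 non-histone probes were also saturated, in 4 and 2 channels, so the Hist1h4i 3′ reading is not treated as specific to that gene.

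Against the EGFP clone, the histone genes sat close to the middle of the array in the Nr5a2-EGFP clone. Over the 48 members above background in at least 1 channel, the median log2 ratio was -0.09 (range -1.72 to 0.91), against 0.01 over all probes. No member was at least 2-fold higher (3.35% of all probes were) and 1 was at least 2-fold lower (5.21% of all probes), the Hist3 gene Hist3h2bb; in either direction it was 1 of 48 against 8.56% of all probes. Of the 48, 28 were below 0, against 48.9% of all probes.

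Against the Oct4-EGFP clone, most members read lower in the Nr5a2-EGFP clone. The median was -0.34 (range -2.93 to 0.47) over 49 members, against 0.00 over all probes, and 38 of 49 were below 0, against 50.1% of all probes, and 11 above, against 49.9%. None was at least 2-fold higher (4.49% of all probes), and 3 were at least 2-fold lower (7.45% of all probes): Hist3h2ba, Hist2h3c2 and Hist1h2bc. Within 0.5 of 0 lay 31 of 49 members, against 20653 of 31954 of all probes.

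The indirect ratio of the Oct4-EGFP over the EGFP clone had a median of 0.28 over 49 members, or 0.17 when the 2 Cy3 levels were set against each other, against 0.01 and -0.01 over all probes. Above 0 were 31 of 49 members, against 51.1% of all probes. Hist2h3c2 and Hist3h2ba were at least 2-fold higher (6.58% of all probes) and Hist3h2bb at least 2-fold lower (5.88% of all probes).

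**Figure D1:**
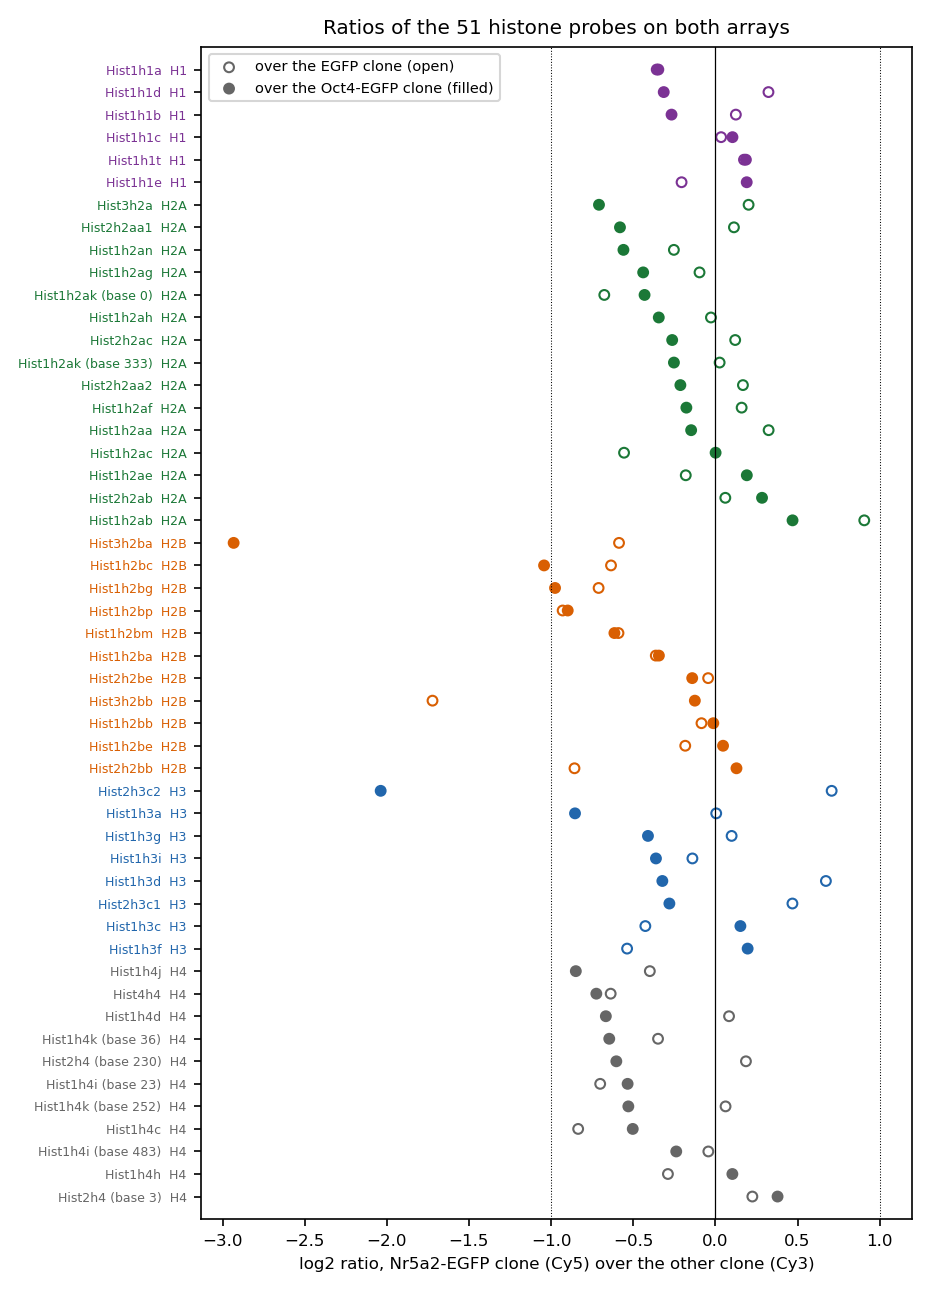
Log2 ratio of the Nr5a2-EGFP clone over the EGFP clone (open points) and over the Oct4-EGFP clone (filled points) for each of the 51 probes, coloured by histone class, with dotted lines at -1 and 1; genes with 2 probes carry the first base of the probe in the transcript, and Hist1h2ae and Hist2h2ab were above background in no channel. Hist3h2ba and Hist2h3c2 stand left of the other filled points at -2.93 and -2.04, and Hist3h2bb left of the other open points at -1.72.

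The Nr5a2-EGFP clone was read on both arrays, which gives the only repeated measurement. The labels do not say whether both readings came from 1 extract. The 2 readings of a member differed by an SD of 0.21 in log2 level (range -0.58 to 0.74), against 0.30 over all probes. None of the 49 members differed by 2-fold, against 1.71% of all probes. Within 0.5 agreed 46 of 49, against 30783 of 32806 of all probes. The largest gap, 0.74, was that of Hist3h2bb. The largest ratios of Hist3h2ba (-2.93), Hist2h3c2 (-2.04) and Hist3h2bb (-1.72) were each wider than any gap between readings of a member. Over all probes the gaps ran from -3.69 to 5.02. A gap compares the same clone in the same dye, so it does not measure the spread between clones or dyes.

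**Figure D2:**
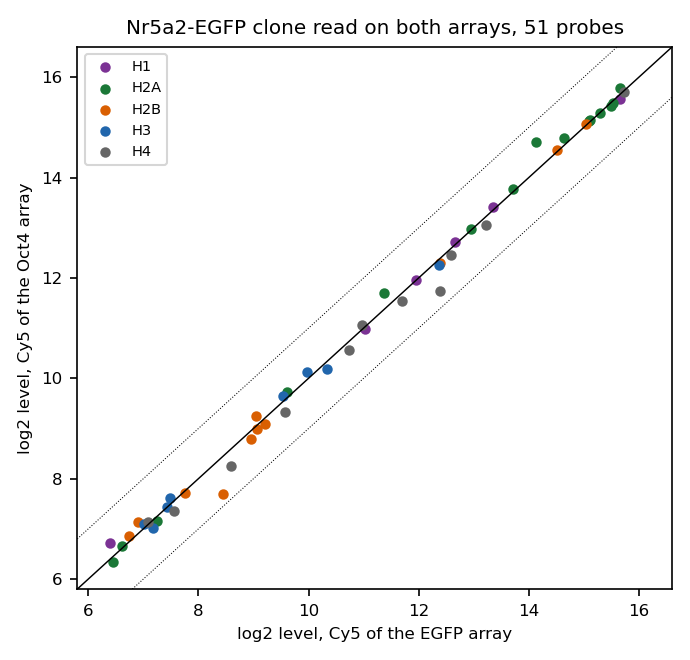
Log2 level of the Nr5a2-EGFP clone in Cy5 of the EGFP array (horizontal) against Cy5 of the Oct4 array (vertical) for the 51 histone probes, coloured by class, with the line of equality and dotted lines 2-fold away. All points lie between the dotted lines, with an SD of 0.21 in the log2 difference.

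The Hist3 cluster held the widest member ratio on each array. Hist3h2ba encodes an H2B, and its probe at chr11:58762964-58763023 (mm9, plus strand) starts at base 551 of the transcript and holds the AATAAA shown above. Its log2 level was 8.34 in EGFP cells, 10.64 in Oct4-EGFP cells, and 7.76 and 7.71 in Nr5a2-EGFP cells, the EGFP array being given first here and below. The Oct4-EGFP clone thus stood apart from the other readings, 7.63-fold above the Nr5a2-EGFP clone (log2 ratio -2.93) and, indirectly, 5.08-fold above the EGFP clone. Nr5a2-EGFP over EGFP was -0.59. Hist3h2bb, listed as an H2B pseudogene, was highest in another clone. Its body probe at chr11:58767908-58767967 (mm9, minus strand) read 10.16 in EGFP cells, 7.82 in Oct4-EGFP cells, and 8.44 and 7.70 in Nr5a2-EGFP cells. It was 3.30-fold lower in the Nr5a2-EGFP than in the EGFP clone (log2 ratio -1.72), and near 0 against the Oct4-EGFP clone (-0.13). Hist3h2a, the H2A gene that is its neighbour in the other orientation, read 11.17 in EGFP cells, 12.41 in Oct4-EGFP cells, and 11.37 and 11.70 in Nr5a2-EGFP cells at chr11:58768954-58769013 (mm9, plus strand). Its ratios were 0.20 over EGFP, -0.71 over Oct4-EGFP and an indirect 0.91. RefSeq lists other genes over Hist3h2ba (the lncRNA Gm51864) and Hist3h2a (Trim17), as it does for 5 of the 47 member genes, and signal from an overlapping transcript cannot be told apart here. The probe of Trim17 itself was well above background in 1 channel. The 3 probes span 6050 bases, and within that stretch Hist3h2ba and Hist3h2a were highest in the Oct4-EGFP clone while Hist3h2bb was highest in the EGFP clone.

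**Figure D3:**
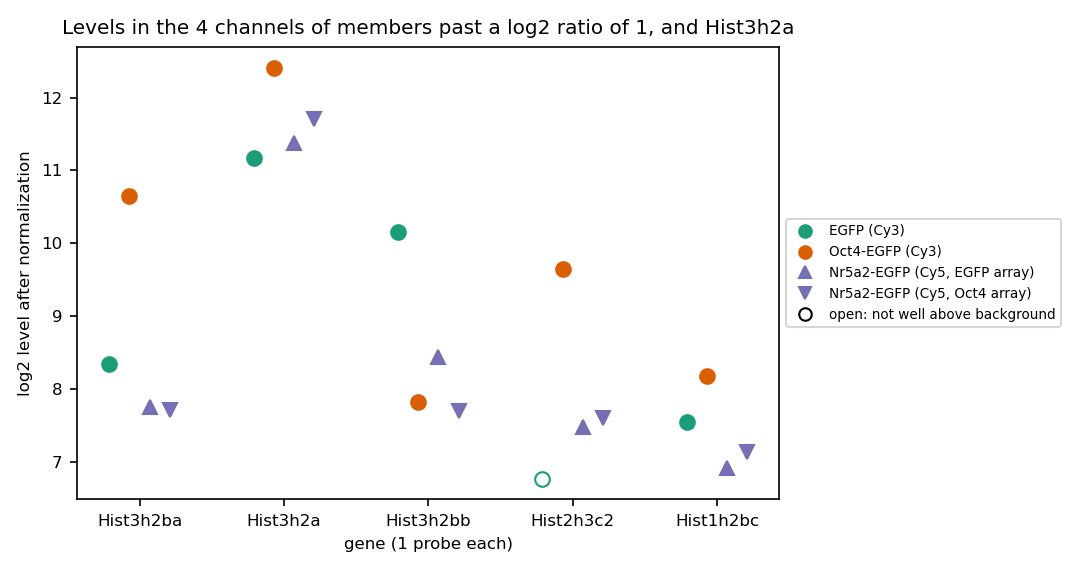
Normalized log2 level in each channel (circles Cy3, triangles Cy5) of the 4 members past a log2 ratio of 1 in either direction and of Hist3h2a; open symbols were not well above background, and levels are to be read within a gene, since probes differ in brightness. The Oct4-EGFP clone is highest for Hist3h2ba (10.64), Hist3h2a (12.41), Hist2h3c2 (9.64) and Hist1h2bc (8.18), and the EGFP clone for Hist3h2bb (10.16).

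Among the H2B genes, which encode the partner of H2A in the nucleosome, every one of the 11 probes was below 0 in Nr5a2-EGFP over EGFP, with a median of -0.59. This is the lowest median of the 5 classes in that comparison, and 48.9% of all probes were below 0. Over Oct4-EGFP, 9 of 11 were below 0 and the median was -0.34; the indirect median was -0.02. The 6 far 3′ probes of this class had a median of -0.94 over Oct4-EGFP and the 4 body probes -0.23. Hist1h2bc, a far 3′ probe at chr13:23784254-23784313, read 7.55 in EGFP cells, 8.18 in Oct4-EGFP cells, and 6.91 and 7.14 in Nr5a2-EGFP cells. That made it 2.06-fold lower than in the Oct4-EGFP clone (-1.04), with -0.64 over EGFP. Hist1h2bg, also far 3′, lay just inside the 2-fold mark, with 9.76 in EGFP cells, 10.22 in Oct4-EGFP cells, and 9.05 and 9.25 in Nr5a2-EGFP cells (-0.71 and -0.98). Both genes were lowest in both Nr5a2-EGFP readings. For Hist1h2bp neither Nr5a2-EGFP reading was well above background, so it was at least 1.90-fold lower than in the EGFP clone and at least 1.86-fold lower than in the Oct4-EGFP clone. Such a bound sets the brighter clone against the higher of the dim reading and the lowest level well above background in that channel, using normalized levels, so for Oct4-EGFP over EGFP the 2 Cy3 levels.

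Other H2B genes followed the Cy3 clones differently. Hist2h2bb, read through its stem-loop, stood at 9.81 in EGFP cells, 8.66 in Oct4-EGFP cells, and 8.95 and 8.79 in Nr5a2-EGFP cells, so the EGFP clone alone was high (-0.86 over EGFP and 0.13 over Oct4-EGFP). Hist1h2ba, the testis H2B, read 15.41 in EGFP cells, 15.41 in Oct4-EGFP cells, and 15.04 and 15.07 in Nr5a2-EGFP cells. For Hist1h2bm the readings were 15.11 in EGFP, 15.17 in Oct4-EGFP, and 14.52 and 14.55 in Nr5a2-EGFP. These 2 genes gave nearly equal ratios on both arrays, -0.36 and -0.34 for Hist1h2ba and -0.59 and -0.61 for Hist1h2bm. Hist1h2be, whose far 3′ probe holds ATTAAA, read 12.56 in EGFP, 12.26 in Oct4-EGFP, and 12.38 and 12.30 in Nr5a2-EGFP, with no clone apart by more than 0.31. The other 2 H2B probes, of Hist1h2bb and Hist2h2be, had ratios between -0.14 and -0.01 on both arrays.

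The H4 genes encode a single protein sequence from many copies. Their 11 probes had a median of -0.29 over EGFP, with 7 below 0, and of -0.53 over Oct4-EGFP, with 9 below 0, the lowest class median there; the indirect median was 0.20. No H4 probe reached 2-fold in the 2 measured ratios or the indirect ratio; by Cy3 levels Hist1h4h did (-1.03). Hist1h4c, lowest of the class over EGFP, read 7.92 in EGFP cells, 7.64 in Oct4-EGFP cells, and 7.09 and 7.14 in Nr5a2-EGFP cells (-0.84 and -0.50). Hist4h4, the only member on chromosome 6, gave -0.64 and -0.72, and Hist1h4j -0.40 and -0.85. All 3 were lower in the Nr5a2-EGFP clone than in both others. Hist1h4h read 12.67 in EGFP, 11.64 in Oct4-EGFP, and 12.38 and 11.74 in Nr5a2-EGFP. Its 2 Nr5a2-EGFP readings were themselves 0.64 apart, the second widest gap among the members.

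The H4 genes with 2 probes show how far probes of 1 gene can part. Hist2h4 read 13.04 in EGFP, 13.67 in Oct4-EGFP, and 13.23 and 13.06 in Nr5a2-EGFP at base 230, with ratios of 0.19 and -0.60. At base 3 it read 10.51 in EGFP, 10.19 in Oct4-EGFP, and 10.74 and 10.56 in Nr5a2-EGFP, with ratios of 0.22 and 0.38. The 2 probes thus differed in sign over Oct4-EGFP by 0.98, the widest gap among the 4 genes with 2 probes; no gene had probes 2-fold apart. Hist1h4k at base 252 read 12.53 in EGFP, 12.99 in Oct4-EGFP, and 12.59 and 12.46 in Nr5a2-EGFP, and its ratio over Oct4-EGFP (-0.53) was close to that of its probe at base 36 (-0.65). Over EGFP the 2 Hist1h4k probes differed in sign, 0.06 at base 252 and -0.35 at base 36. The Hist1h4i probe at base 23, which holds no repeat stretch, gave -0.70 and -0.53. Its 3′ probe read 15.77 in EGFP, 15.94 in Oct4-EGFP, and 15.73 and 15.71 in Nr5a2-EGFP, saturated in Cy5 on both arrays.

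The H3 genes spread widely around class medians of 0.05 over EGFP and -0.34 over the Oct4-EGFP clone. The indirect median, 0.63, was the highest of the 5 classes, with 6 of 8 above 0. Hist2h3c2 led them. Its far 3′ probe at chr3:96042034-96042093 (mm9, minus strand) starts at base 957 and read 6.77 in EGFP cells, 9.64 in Oct4-EGFP cells, and 7.48 and 7.61 in Nr5a2-EGFP cells. The EGFP reading was not well above background. It was 4.10-fold lower in the Nr5a2-EGFP than in the Oct4-EGFP clone (log2 ratio -2.04), and Nr5a2-EGFP cells exceeded EGFP cells at least 1.63-fold. Oct4-EGFP over EGFP was 2.74 as the indirect log2 ratio; by the Cy3 levels, which the bound uses, it was at least 7.34-fold. Hist2h3c1, its cluster neighbour read by a body probe that 3 listed transcripts share, read 9.50 in EGFP, 10.41 in Oct4-EGFP, and 9.97 and 10.13 in Nr5a2-EGFP. The order of the clones was the same for both, EGFP lowest and Oct4-EGFP highest.

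In Hist1, Hist1h3d read 11.69 in EGFP, 12.58 in Oct4-EGFP, and 12.36 and 12.26 in Nr5a2-EGFP, with ratios of 0.67 and -0.32 and an indirect ratio just under the 2-fold mark. Hist1h3a, read through its stem-loop, stood at 7.01 in EGFP, 7.95 in Oct4-EGFP, and 7.01 and 7.09 in Nr5a2-EGFP. Only the Oct4-EGFP clone was high for Hist1h3a (-0.85 over Oct4-EGFP and 0.00 over EGFP), close to the background limit. Hist1h3i, a stem-loop probe too, read 10.48 in EGFP, 10.54 in Oct4-EGFP, and 10.34 and 10.18 in Nr5a2-EGFP. Hist1h3f and Hist1h3c went the other way from Hist1h3d. Hist1h3f read 7.96 in EGFP, 7.24 in Oct4-EGFP, and 7.42 and 7.44 in Nr5a2-EGFP. Hist1h3c read 9.96 in EGFP, 9.49 in Oct4-EGFP, and 9.53 and 9.64 in Nr5a2-EGFP. In both the EGFP clone was highest, with indirect ratios of -0.73 and -0.58.

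The H2A probes had a median of 0.11 over EGFP, with 5 of 13 below 0 (48.9% of all probes). Over Oct4-EGFP it was -0.26, with 11 of 13 below 0 (50.1% of all probes). None reached 2-fold in either comparison. The indirect median was 0.34, with 11 of 13 above 0 (51.1% of all probes). These counts include the 6 similar coding-end probes described below, whose signal cannot be assigned to 1 gene. All of those were below 0 over Oct4-EGFP and above 0 indirectly. No indirect ratio of this class reached 2-fold, but by Cy3 levels Hist3h2a (1.24) and Hist1h2ab (1.02) did. Hist1h2ab had the highest ratio of all members on both arrays. Its probe, which ends in part of the stem-loop, read 13.22 in EGFP cells, 14.24 in Oct4-EGFP cells, and 14.13 and 14.71 in Nr5a2-EGFP cells (0.91 and 0.47). Its Nr5a2-EGFP readings differed by 0.58, more than the ratio of 0.47. Hist1h2aa, the testis H2A, read 12.62 in EGFP, 13.12 in Oct4-EGFP, and 12.94 and 12.97 in Nr5a2-EGFP. Hist2h2aa1, read through its stem-loop, gave 0.11 and -0.58, and Hist1h2ac, read far 3′ at base 2424, gave -0.56 and 0.00.

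A set of 6 H2A probes covers the end of the coding sequence and shows how alike these copies are. Capitals mark bases that differ from the Hist1h2ak probe or lie outside the stretch aligned with it:
Hist1h2ak: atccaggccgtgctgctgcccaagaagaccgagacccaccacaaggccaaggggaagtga
Hist1h2af: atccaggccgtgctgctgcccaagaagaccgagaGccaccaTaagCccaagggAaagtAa
Hist1h2ah: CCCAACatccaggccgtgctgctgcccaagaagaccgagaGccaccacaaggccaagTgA
Hist1h2an: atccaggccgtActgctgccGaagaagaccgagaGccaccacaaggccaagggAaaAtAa
Hist2h2aa2: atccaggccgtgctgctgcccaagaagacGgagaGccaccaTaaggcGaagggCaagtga
Hist2h2ac: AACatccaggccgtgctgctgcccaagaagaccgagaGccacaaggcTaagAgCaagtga
Counted from 1 at the 5′ end of the Hist1h2ak probe, C35G was found in Hist1h2af, Hist1h2ah, Hist1h2an and Hist2h2aa2. Hist2h2ac aligned only with a gap of 3 bases, which the capitals do not show. Across the family, 10 pairs of probes, among 7 probes, were at least 90% identical over an ungapped stretch, Hist2h2ac being in none of them, and 13 members list more than 1 RefSeq transcript. Signal in these probes cannot be assigned to 1 gene, and all 6 also share 20 letters with a probe of H2afj, a variant H2A gene, or of RP23-480B19.10. The Hist2h2ac interval in the files contains the Hist2h2aa2 site.

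The 6 coding-end probes gave close indirect ratios, 0.28 to 0.38 (SD 0.04), with -0.56 to -0.18 over Oct4-EGFP and -0.25 to 0.17 over EGFP. Hist1h2ak at this place read 15.47 in EGFP, 15.69 in Oct4-EGFP, and 15.50 and 15.43 in Nr5a2-EGFP. Hist1h2af read 15.36 in EGFP, 15.67 in Oct4-EGFP, and 15.52 and 15.49 in Nr5a2-EGFP. All 6 were highest in the Oct4-EGFP clone. The Hist1h2ak probe at the start of the transcript was saturated in all 4 channels (16.33, 16.20, 15.66 and 15.77 in EGFP, Oct4-EGFP and the 2 Nr5a2-EGFP readings) and gives no fold.

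The linker histone genes differed little. Their medians were 0.03 over EGFP (5 probes), and over 6 probes -0.08 against Oct4-EGFP and -0.01 in the indirect ratio, and none of the measured ratios passed 0.40 in size except the indirect ratio of Hist1h1d. Hist1h1a, an H1 of dividing cells, read 13.71 in EGFP, 13.76 in Oct4-EGFP, and 13.35 and 13.41 in Nr5a2-EGFP. Hist1h1b read 12.53 in EGFP, 12.98 in Oct4-EGFP, and 12.66 and 12.72 in Nr5a2-EGFP. Hist1h1e read 11.23 in EGFP, 10.78 in Oct4-EGFP, and 11.02 and 10.97 in Nr5a2-EGFP. Hist1h1t, the testis linker histone, read 15.48 in EGFP, 15.37 in Oct4-EGFP, and 15.65 and 15.55 in Nr5a2-EGFP, saturated in Cy5 of the EGFP array, where it was at least 1.13-fold higher than in the EGFP clone. Hist1h1d was well above background in the Oct4-EGFP clone alone, at least 1.35-fold above the EGFP clone and at least 1.24-fold above the Nr5a2-EGFP clone.

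**Figure D4:**
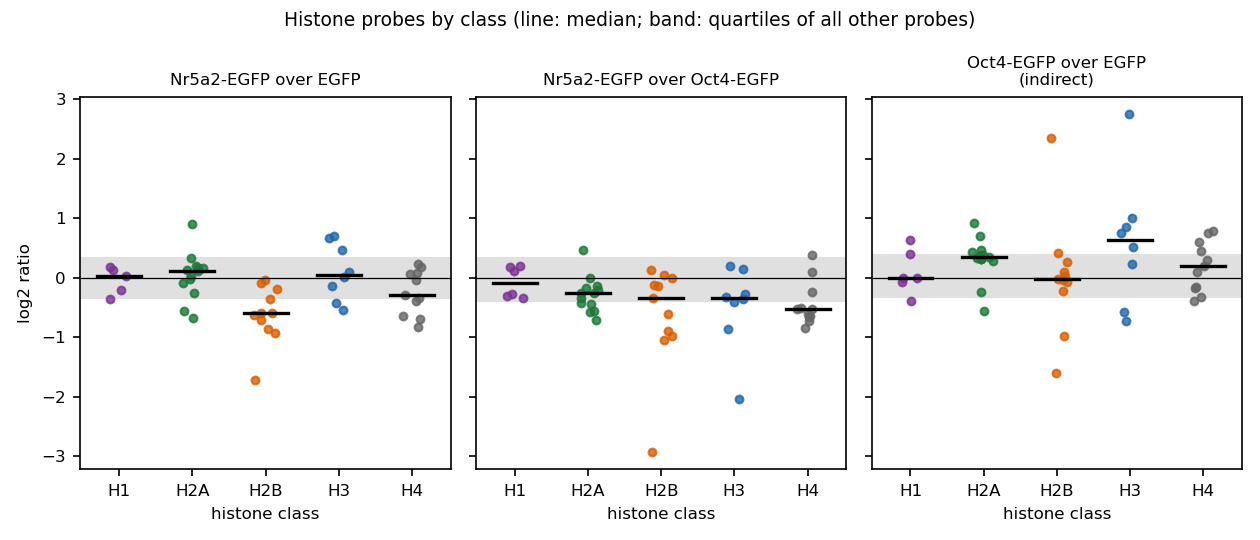
Log2 ratios of the histone probes above background in at least 1 channel, by class, in the 3 comparisons; each point is 1 probe, the line is the class median and the grey band spans the quartiles of all other probes. In Nr5a2-EGFP over EGFP all 11 H2B points lie below 0 (median -0.59), while in Nr5a2-EGFP over Oct4-EGFP the H4 median, -0.53, is lowest.

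By place in the transcript, the medians over EGFP were -0.10 for body, 0.05 for stem-loop and -0.18 for far 3′ probes. Those over Oct4-EGFP were -0.32, -0.39 and -0.51. All 3 members at least 2-fold lower than in the Oct4-EGFP clone (Hist3h2ba, Hist2h3c2 and Hist1h2bc) were far 3′ probes. That was 3 of 12, against 0 of 31 body and 0 of 6 stem-loop probes, and 7.45% of all probes. Hist1h2bc, at -1.04, was only just past the 2-fold mark. Its Nr5a2-EGFP reading on the Oct4 array was 7.14, where the lowest Cy5 level well above background was 6.69. Whether place was related to the ratio was not tested. The only member past 2-fold over EGFP, Hist3h2bb, was a body probe. Place and class are mixed here, since 6 of the 12 far 3′ probes were H2B. Other far 3′ probes, those of Hist1h1c, Hist1h2be, Hist1h2ac and Hist2h2be, had ratios over Oct4-EGFP between -0.14 and 0.10.

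**Figure D5:**
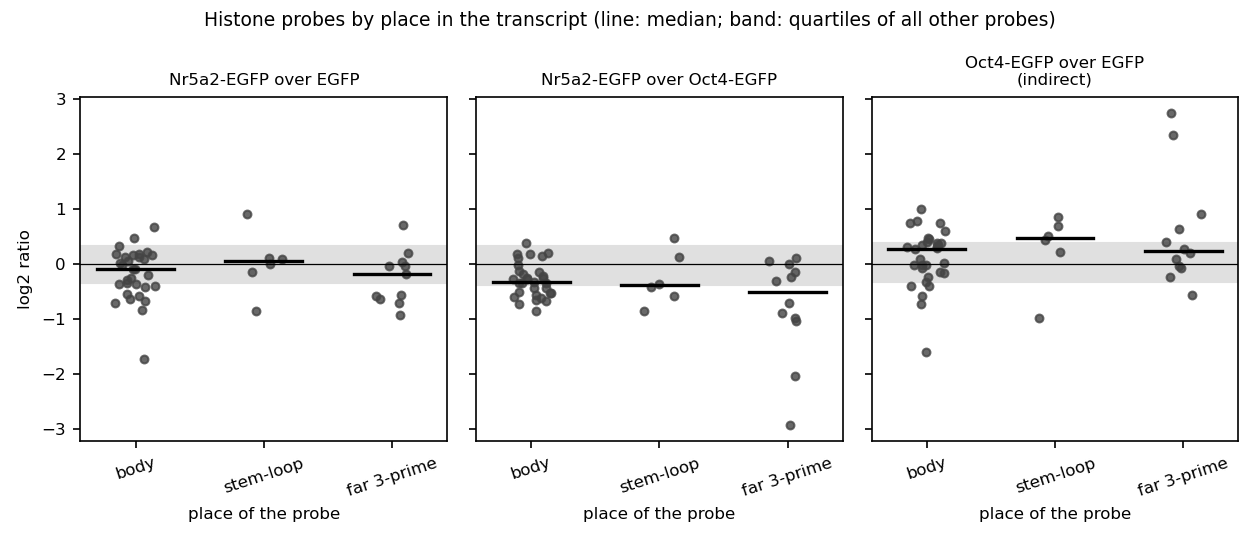
Log2 ratios of the histone probes above background in at least 1 channel, by place in the transcript (body, stem-loop, far 3-prime), in the 3 comparisons; lines are medians and the grey band spans the quartiles of all other probes. The 3 points at or below -1 in Nr5a2-EGFP over Oct4-EGFP are all far 3-prime, and the medians there are -0.32, -0.39 and -0.51.

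Promoters were examined because histone genes carry class-specific elements, and the octamer binds POU-domain factors, the family of Oct4 and of Pou2f1. In RefSeq promoters of GRCm38.p6, 250 bases before to 50 after the start, 42 promoters of 41 member genes were matched. The octamer ATTTGCAT, on either strand, lay in 13 of 42 (31.0%), against 1.74% of all 32851 promoters. It was in 7 of 14 H2A and 6 of 9 H2B promoters and in no H1, H3 or H4 promoter. Some windows overlap on opposite strands, as for Hist1h2aa with Hist1h2ba and Hist1h2ae with Hist1h2bg. An octamer shared by such a pair is counted for each gene. CCAAT on either strand lay in 88.1% against 37.4%, and TATAAA in 59.5% against 13.6%. Only 2 of 7 H4 promoters held CCAAT. Shown are 250 bases upstream of Hist3h2ba and Hist3h2a, which were both highest in the Oct4-EGFP clone, and of Hist1h2bg, an H2B gene with the octamer; capitals mark the octamer, CCAAT and TATAAA on either strand, and all 3 are on the plus strand at chr11:58948661-58948910, chr11:58954435-58954684 and chr13:23571150-23571399 of GRCm38.p6:
Hist3h2ba: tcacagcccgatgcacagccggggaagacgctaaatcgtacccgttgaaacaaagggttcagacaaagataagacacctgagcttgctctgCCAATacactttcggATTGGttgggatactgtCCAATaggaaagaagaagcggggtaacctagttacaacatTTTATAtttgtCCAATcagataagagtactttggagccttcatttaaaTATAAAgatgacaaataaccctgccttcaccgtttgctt
Hist3h2a: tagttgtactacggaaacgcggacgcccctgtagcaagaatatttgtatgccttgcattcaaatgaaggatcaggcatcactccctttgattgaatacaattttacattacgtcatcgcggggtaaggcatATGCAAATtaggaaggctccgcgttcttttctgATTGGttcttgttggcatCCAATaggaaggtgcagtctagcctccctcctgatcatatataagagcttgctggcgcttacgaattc
Hist1h2bg: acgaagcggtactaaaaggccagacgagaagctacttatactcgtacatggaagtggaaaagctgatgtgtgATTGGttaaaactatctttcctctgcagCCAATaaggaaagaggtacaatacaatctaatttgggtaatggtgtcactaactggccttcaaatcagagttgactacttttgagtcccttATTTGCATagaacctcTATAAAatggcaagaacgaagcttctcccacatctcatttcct
Hist3h2ba, with the widest ratio, holds no octamer letters in this window, while Hist3h2a holds them. The 12 octamer members above background had medians of -0.13 over EGFP, -0.21 over Oct4-EGFP and 0.14 in the indirect ratio; members with a matched promoter but no octamer had -0.10, -0.39 and 0.30. Octamer and class are mixed here, since only H2A and H2B promoters held it. Within H2B, the medians were -0.48, -0.18 and -0.05 for 6 probes with the octamer and -0.76, -1.92 and 1.16 for 2 without.

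No gene on the lists for histone transcription or for histone mRNA ends and decay passed 2-fold over EGFP by its brightest probe, and some did in the other comparisons. Each gene is given by that probe unless stated; over genes, 8.35%, 11.6% and 12.0% passed 2-fold in the 3 comparisons. Of the genes for 3′ end formation and decay, 25 were measured over EGFP (median -0.09), and of 26 over Oct4-EGFP (median -0.07) 2 were higher, Wdr33 (1.58) and Cstf2t (1.14), both parts of the cleavage and polyadenylation machinery. The lowest there were Ncbp2 (-0.86) and Ncbp1 (-0.75), the nuclear cap-binding complex. Slbp read 10.71 in EGFP, 11.29 in Oct4-EGFP, and 10.49 and 10.61 in Nr5a2-EGFP (-0.22 and -0.68); its other probe gave -0.57 and -0.29. Over EGFP the highest were Lsm10 (0.98), a U7 particle protein, and Fip1l1 (0.70), and the lowest Zfp473 (-0.85) and Ncbp2 (-0.81). In the indirect ratio 1 of 25 was higher, Ncbp1 (1.21), with Sympk next (0.49), and 3 were lower, Wdr33 (-2.08), Zfp473 (-1.83) and Zcchc11 (-1.15). Several of these values differed between probes of a gene. The other probes of Zfp473 and Zcchc11 gave 0.20 and 0.06 in the indirect ratio, and over EGFP those of Zfp473 and Fip1l1 had the opposite sign (0.48 and -0.70). Those of Dis3l2 (1.59) and Cpsf4 (1.18) passed 2-fold over EGFP. Over Oct4-EGFP the other probes of Dis3l2 (1.34) and Fip1l1 (1.08) were past 2-fold higher and that of Cpsf4 (-1.34) lower. In the indirect ratio the other probe of Cpsf4 gave 2.52 and that of Fip1l1 -1.78. The Wdr33 readings in Nr5a2-EGFP cells were 0.70 apart, and its Cy3 levels gave -1.37.

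Among 15 genes of histone gene transcription, none passed 2-fold over EGFP (median -0.04), where Yy1 (0.61) and Nfya (0.48) were highest and E2f2 (-0.84) and Ccne2 (-0.57) lowest. Over Oct4-EGFP (median -0.20), Yy1 (1.11), E2f3 (1.10) and the CCAAT-binding subunit Nfyc (1.10, saturated in 1 channel; 0.89 by its other probe) were higher and E2f2 (-2.00) lower. The probe of Pou5f1, which encodes Oct4, read 7.61 in EGFP, 7.59 in Oct4-EGFP, and 7.49 and 6.69 in Nr5a2-EGFP, the last not well above background. Its ratio over Oct4-EGFP was -0.90, but its Cy3 levels differed by -0.02 and its Nr5a2-EGFP readings by 0.80, so it did not separate the Oct4-EGFP clone from the EGFP clone. Whether the probe lies within the transfected construct was not tested. The indirect ratio had E2f2 (1.15) and Ccne1 (0.78) highest and E2f3 (-1.48) and Nfyc (-1.13) lowest. The second E2f3 probe gave 0.87 over Oct4-EGFP and -0.83 indirectly, and the other Nfyb probes reached -1.45 over Oct4-EGFP and 2.00 indirectly, where the brightest gave -0.46 and 0.77. Npat, the coactivator of the histone clusters, gave -0.34 and -0.20, and Casp8ap2 (FLASH), which acts with U7, -0.43 and -0.13.

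The replication-independent variants, whose mRNAs are mostly polyadenylated, included 2 genes past 2-fold over EGFP. Of 13 on the array, H3f3a (1.52), encoding H3.3, and H1fx (1.16) were higher over EGFP, and H3f3a (1.13) and the macroH2A-related H2afy3 (1.10) over Oct4-EGFP. H3f3a read 13.05 in EGFP, 13.59 in Oct4-EGFP, and 14.58 and 14.71 in Nr5a2-EGFP, so both Nr5a2-EGFP readings were above both other clones. The other H3f3a probe gave 1.45 over EGFP but 0.53 over Oct4-EGFP, short of 2-fold. Over EGFP, H1foo was saturated in 3 channels and gives no fold, and H2afv stood at -0.48 (-1.21 by its other probe). The lowest over Oct4-EGFP were H1fx (-0.86) and Cenpa (-0.44), while the other probes of H2afv and H2afj (-1.43) were past 2-fold lower. In the indirect ratio H1fx (2.02) and H1f0 (1.44) were higher and H2afy3 (-1.16) and H2afy2 (-1.01) lower. H2afz gave -0.07 and 0.36, and H2afx, saturated in 2 channels, 0.77 and -0.18. The medians of the 13, -0.06 and -0.17, lay near those of the replication-dependent members over EGFP and nearer 0 over Oct4-EGFP.

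Of 18 histone chaperones and assembly factors, none passed 2-fold over EGFP (median 0.01; Rbbp7 0.97, Daxx 0.92, Nap1l1 -0.82). Over Oct4-EGFP (median -0.02) Rbbp7 (2.07) and the H3.3 chaperone Daxx (1.24) were higher, and Hjurp (-0.59) and Asf1a (-0.53) lowest. Another Hjurp probe gave -1.25 there, past 2-fold lower. Indirectly Rbbp7 (-1.10, or -0.49 by its other probe) was lower, and Hira (0.94) and Hjurp (0.92) were highest. Other probes of Nap1l1 (-1.33) and Nasp (-1.24) were past 2-fold lower indirectly, where the brightest gave -0.44 and -0.37. The brightest Rbbp4 probe was saturated in 3 channels and gives no fold; its other probe gave 0.32 over EGFP and 1.29 indirectly. Of the S phase genes, 21 were on the array, and none of 20 passed 2-fold over EGFP (median -0.13; Mcm3 0.72, Pola1 0.40, Prim1 -0.46, Gins1 -0.77). Over Oct4-EGFP (median 0.06) the helicase subunit Mcm6 (1.05) was higher and Mcm2 (-1.02) lower, with Tyms at 0.70 and Gins2 at -0.81. The indirect median was -0.25, with Mcm6 (-1.08) and Mcm5 (-0.67) lowest and Mcm2 (0.80) and Mcm3 (0.61) highest. The S phase list thus had a median above 0 in Nr5a2-EGFP over Oct4-EGFP, where the histone median was -0.34.

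Cell type markers differed between the clones in the same comparison. Over Oct4-EGFP, 4 of 8 ES cell markers were at least 2-fold lower in the Nr5a2-EGFP clone (median -1.16), against 7.05% of all genes. There 5 of 6 trophoblast markers were at least 2-fold higher (median 2.12), against 4.51% of all genes. The Nr5a2-EGFP readings of Esrrb (-3.72) and Zfp42 (-2.13) themselves differed by -1.45 and 1.15. Dppa5a (-1.42) was saturated in 1 channel. The brightest Nanog probe was saturated in 3 channels and gives no fold, while its other probe gave 1.70 over EGFP and 2.12 indirectly. The median trophoblast marker level was 11.68 in EGFP, 9.47 in Oct4-EGFP, and 11.80 and 11.82 in Nr5a2-EGFP. These level medians cover the 7 genes on the array, including Elf5, which was above background in no channel. The median ES marker level was 12.70 in EGFP, 13.92 in Oct4-EGFP, and 12.49 and 12.00 in Nr5a2-EGFP. Of the fibroblast markers, 6 of 8 were above background, Prrx1 and Postn being in no channel. Over Oct4-EGFP 1 of 6 fibroblast markers was 2-fold lower (7.05% of all genes) and 1 of 6 primitive endoderm markers 2-fold higher (4.51%). The median fibroblast marker level, over all 8, was 7.92 in EGFP, 7.66 in Oct4-EGFP, and 7.74 and 7.65 in Nr5a2-EGFP. The part of the cell type markers in the histone values was not tested. In bulk RNA, fewer cells with a transcript and less of it per cell cannot be told apart.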

How the data were processed

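Each array gave a file of spot intensity values, deposited as Agilent Feature Extraction scanner output (version 10.7.3.1 per the file headers; 9.3.2.1 per the submitters' processing notes), with mean and background intensities, quality flags (background, saturation, outlier) and a log10 ratio. The deposited value table holds log2 ratios of the same arrays; it followed the software's ratio (r = 0.997 on both arrays, column medians 0.03 and 0.05), and its exact scale and centring are not given in the sources used here.

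In limma 3.58.1 (R 4.3.3), normexp background correction (offset 50) and loess within each array were applied to 43020 spots per array; 530 and 523 outlier spots were left out and spots of a probe averaged. Levels are log2 after Aquantile scaling. The normalization was tested on simulated data. Between 78.1% and 80.1% of these spots per channel, outliers included, were well above background. A member was counted as higher or lower from a log2 ratio of 1, among probes well above background in at least 1 channel. No test was made, since each ratio rests on a single array, and that number limits the precision.

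The genes named are the 4 highest and 4 lowest unsaturated members of each comparison, the 3 brightest of each class, every member past 2-fold and, of other lists, the 2 highest and 2 lowest. Other members with values were named after their values were seen. The members and lists were chosen with earlier results of these data known.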

Additional observations from a re-analysis of the deposited data

How the results depend on the processing

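The medians of the histone probes kept their direction under every alternative tried (between -0.52 and -0.17 over Oct4-EGFP, and between 0.17 and 0.31 in the indirect ratio) except over EGFP, where they ran from -0.16 to 0.05, the positive value with ratios centred on the array median. That centring moved the median of all probes from 0.01 to 0.14 and the share of higher among called probes from 39.1% to 61.9%, while members minus all probes stayed at -0.10. Counts of members past 2-fold moved more. Over EGFP the count was 1 as reported, 3 with the Nr5a2-EGFP level of the other array, 2 with no background subtraction, 2 with median centring, 5 with the scanner software's ratio and 5 with the deposited value table. Over Oct4-EGFP it went from 3 to 6 with the other array's level, the software's ratio and the value table. In the indirect ratio it went from 3 to 7 with Cy3 levels and to 8 with the software's ratio and the value table. The software's ratio also raised the calls over all probes from 2727 to 4957, from 3813 to 5802 and from 4086 to 6554; the cause was not tested. No member past 2-fold changed sign; Hist2h3c2 reached 4.36 and Hist3h2bb -2.34 in the indirect ratio, and Hist3h2bb -2.46 over EGFP with the other array's level. Saturation and background limit 8 members to a bound, no fold or no reading above background in some comparisons. No paired analysis was possible because the series has 2 arrays, each with a different clone in Cy3 and no replicate.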
